A study of Mus musculus with 12 samples.

Results

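The genes described are 7 Toll-like receptors (Tlr1, Tlr2, Tlr4, Tlr7, Tlr8, Tlr9 and Tlr13), the lipopolysaccharide co-receptors Cd14 and Ly96, and the adaptor Myd88. They were taken by symbol from the deposited gene counts, where all 10 were found among 26608 gene rows, and all 10 passed the filter on low counts that left 14254 genes for testing. The study sequenced RNA from cells sorted from mouse lung, about 250 cells per library, to ask how loss of Hif1a, the oxygen-regulated subunit of HIF-1, in Cx3cr1-expressing cells changes lung macrophages and monocytes. All mice, on C57Bl/6, had been exposed to hypoxia for 3 weeks with SU5416, a VEGF receptor inhibitor, once a week, so no library comes from normal air. In CrePos mice (Cx3cr1cre;Hif1α Δ/Δ) Cre recombinase under Cx3cr1, a chemokine receptor gene of monocytes and macrophages, deletes Hif1a. CreNeg mice (Hif1α flox/flox) carried the floxed alleles without Cre, so an effect of the driver and one of the deletion cannot be told apart.

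The 12 libraries form 4 groups of 3. CrePos IM comprises IM649, IM650 and IM661, and CreNeg IM comprises IM648, IM659 and IM660. CrePos RM comprises RM649, RM650 and RM661, and CreNeg RM comprises RM648, RM657 and RM659. IM stands for interstitial macrophages, which live in the lung tissue outside the airspaces. RM is the code in the titles for libraries whose tissue label is non-classical monocytes, the cells that patrol the inner wall of vessels. Nothing says that the numbers are separate animals, so p-values measure the spread between these libraries, which may be technical.

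Toll-like receptors are membrane proteins that bind parts of microbes and start inflammatory gene expression. CD14 picks up lipopolysaccharide and hands it to the complex of TLR4 with MD-2, the product of Ly96, whereas TLR2 binds bacterial lipopeptides together with TLR1 or TLR6 at the cell surface. TLR7, TLR8, TLR9 and TLR13 sit in endosomes, where TLR9 senses unmethylated DNA, TLR7 and TLR8 sense RNA, and TLR13, which mice have and humans lack, senses bacterial ribosomal RNA. All of these receptors signal through MyD88, which recruits IRAK kinases and leads to NF-kB.

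Gene counts summed to between 5332600 and 14099509 per library. Levels are CPM, a gene's counts relative to the summed counts of all tested genes after TMM scaling. Hif1a itself was counted in every library, at 192, 204 and 200.01 CPM in CrePos IM against 231, 212 and 243 CPM in CreNeg IM. It stood at 154, 212 and 150.3 CPM in CrePos RM against 246, 221 and 207 CPM in CreNeg RM. Neither difference passed edgeR's quasi-likelihood test (adjusted p = 0.938 in IM and 0.407 in RM). Counts over the whole gene do not measure how much was excised. Most markers of the sorted cell types differed between them in the same test at an adjusted p under 0.05. Of 14 interstitial macrophage markers, 12 were higher in CrePos IM than in CrePos RM (3.22% of all genes were). In CreNeg IM 11 were higher than in CreNeg RM (2.81% of all genes), and none was lower. Of 13 nonclassical monocyte markers, 8 were lower in CrePos IM than in CrePos RM (1.35% of all genes were). In CreNeg IM 10 were lower than in CreNeg RM (4.67% of all genes), and none passed as higher. However, 3 of the 13 had log2 fold changes above 0 in CrePos and 2 in CreNeg libraries. Cx3cr1, the gene that drives Cre, was higher in CreNeg IM (316 to 433 CPM) than in CreNeg RM (169 to 302 CPM) without overlap. The share of reads outside annotated exons was 65.2 ± 5.48% in CrePos IM against 42.0 ± 3.06% in CreNeg IM (SD, n = 3; exact permutation test, two-sided, p = 0.1, the smallest that 3 against 3 libraries allow). It was 66.6 ± 9.91% in CrePos RM against 61.7 ± 4.54% in CreNeg RM (exact p = 0.4).

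Promoter windows of 300 bases, from 250 before to 50 after the start site in RefSeq (GRCm38.p6), were found for 6 members: Tlr1 (with 2 windows), Tlr2, Tlr8, Tlr9, Tlr13 and Myd88. The windows of 3 genes are shown, chosen by mean levels: Tlr2 and Tlr9, higher in both IM groups, and Tlr13, higher in both RM groups. Between cell types Tlr2 and Tlr9 passed edgeR's test in CrePos libraries only, and Tlr13 in neither genotype. For Tlr13 the RM661 library (69.5 CPM) lay below every IM library. Capitals mark every match, on either strand, to ACGTG (the core of the HIF site), GAGGAA (a core of the site of PU.1, the factor of myeloid cells), TTGCNNAA (C/EBP), TGANTCA (AP-1) and the NF-kB pattern of GGGA and CC with any 4 bases between.
Tlr2, chr3:83841559-83841858, minus strand: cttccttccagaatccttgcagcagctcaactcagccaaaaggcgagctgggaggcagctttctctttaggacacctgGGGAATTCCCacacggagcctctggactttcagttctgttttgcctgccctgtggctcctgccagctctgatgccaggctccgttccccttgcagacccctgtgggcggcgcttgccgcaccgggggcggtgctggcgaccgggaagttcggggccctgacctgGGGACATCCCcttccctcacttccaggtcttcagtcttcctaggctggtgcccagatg
Tlr9, chr9:106222348-106222647, plus strand: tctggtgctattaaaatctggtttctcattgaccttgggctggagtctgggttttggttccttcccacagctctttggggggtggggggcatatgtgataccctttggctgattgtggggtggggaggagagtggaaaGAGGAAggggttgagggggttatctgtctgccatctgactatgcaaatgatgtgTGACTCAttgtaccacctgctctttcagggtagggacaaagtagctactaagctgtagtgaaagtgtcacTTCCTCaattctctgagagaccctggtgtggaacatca
Tlr13, chrX:106143025-106143324, plus strand: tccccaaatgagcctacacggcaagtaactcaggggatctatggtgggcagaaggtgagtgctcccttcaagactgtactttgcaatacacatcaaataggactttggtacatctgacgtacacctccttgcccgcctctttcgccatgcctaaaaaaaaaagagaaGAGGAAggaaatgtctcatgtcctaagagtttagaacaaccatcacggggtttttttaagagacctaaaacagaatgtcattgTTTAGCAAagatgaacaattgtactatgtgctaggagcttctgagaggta
In the Tlr2 window the NF-kB pattern lies at -172 and at -8, counted from the start site, and matches both strands at each position. This pattern was found in 20.7% of 32851 mouse promoter windows of the same length. The Tlr9 window holds the PU.1 core at -112 and, on the other strand, at 13, and the AP-1 pattern at -58. The Tlr13 window holds the PU.1 core at -83 and the C/EBP pattern, on the other strand, at position 1. The PU.1 core was found in 28.3% of all windows, the C/EBP pattern in 10.8% and the AP-1 pattern in 7.81%. The HIF core, in 19.6% of all windows, was matched in 1 of the 7 windows found, which belongs to Tlr1, and in none of the 3 shown. No match says only that these letters are not in this window.

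The genes lie on 7 chromosomes of GRCm38, and all are protein-coding in GENCODE M21. Cd14 lies on chromosome 18 (36725067 to 36726798), Tlr2 on chromosome 3 (83836272 to 83841767), Tlr4 on chromosome 4 (66827584 to 66930284), Ly96 on chromosome 1 (16688051 to 16709611) and Tlr1 on chromosome 5 (64924679 to 64933563). Tlr9 (106222598 to 106226883) and Myd88 (119335934 to 119341411) share chromosome 9. On the X chromosome, Tlr8 (167242696 to 167264329) and Tlr7 (167304929 to 167330558) are neighbours, and Tlr13 (106143204 to 106160493) lies apart. Most members can be told from other genes by sequence: of the 50-base words in the annotated transcripts, 0% are found in another gene for Tlr2, Tlr7, Tlr8, Tlr9, Tlr13, Cd14 and Ly96, and 0.216% for Tlr4. Tlr1 shares 15.4% of its words with other genes, mostly with its near copy Tlr6 (13.6%). Myd88 shares 7.42%, with Acaa1a, which it overlaps on the opposite strand, and it lies within the span of Slc22a14 on its own strand. No source used here gives the strand setting of the counting. To that extent the levels of Tlr1 and Myd88 are uncertain.

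Among the lipopolysaccharide receptors, Cd14 separated all 4 groups. Its level was 394, 372 and 466 CPM in CrePos IM (IM649, IM650 and IM661) against 713, 587 and 564 CPM in CreNeg IM (IM648, IM659 and IM660). It was 54.1, 73.8 and 20.9 CPM in CrePos RM (RM649, RM650 and RM661) against 93.7, 286 and 205 CPM in CreNeg RM (RM648, RM657 and RM659). No group overlapped another, so that the order of the levels was CreNeg IM, CrePos IM, CreNeg RM and CrePos RM. The signalling receptor Tlr4 stood lower, at 85.4, 89.1 and 44.7 CPM in CrePos IM against 116, 71.6 and 100.1 CPM in CreNeg IM, and these groups overlapped. In RM, all 3 CrePos libraries (12.2, 2.79 and 26.0 CPM) lay below all 3 CreNeg libraries (33.2, 30.1 and 48.8 CPM). Ly96, whose product MD-2 is the part of the complex that holds lipopolysaccharide, was sparse everywhere. It ranged from 1.22 to 14.97 CPM in CrePos IM against 7.67 to 15.6 CPM in CreNeg IM, and from 0.294 CPM (2 counts, RM650) to 17.98 CPM (RM649) in CrePos RM against 4.85 to 9.42 CPM in CreNeg RM. With this scatter no neighbouring groups of Ly96 differed beyond their spread.

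**Figure D1:**
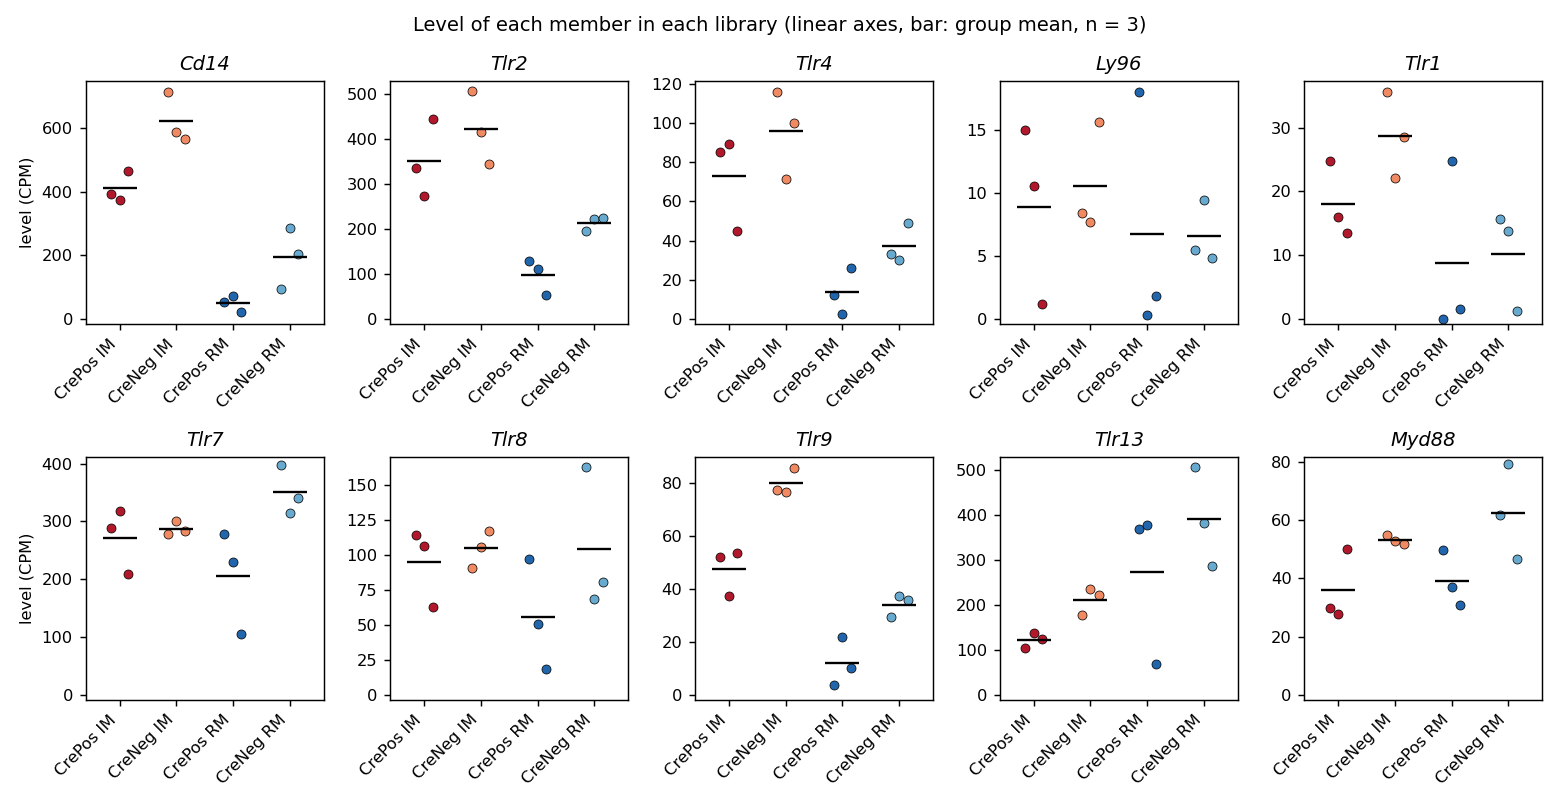
Level of each of the 10 genes in each library, in CPM on linear axes that start at 0; points are libraries, and bars are means of the 3 libraries of a group. Cd14 falls into 4 separate groups, Tlr9 and Tlr13 are lower in all CrePos IM than in all CreNeg IM libraries, and the RM661 library is the lowest CrePos RM point for Cd14, Tlr2, Tlr7, Tlr8, Tlr13 and Myd88.

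Of the receptors for lipopeptides, Tlr2 had 336, 273 and 445 CPM in CrePos IM (IM649, IM650 and IM661) against 507, 416 and 344 CPM in CreNeg IM. It had 130, 112 and 52.7 CPM in CrePos RM against 196, 222 and 224 CPM in CreNeg RM. The IM groups overlapped, whereas the RM groups were apart from each other and from both IM groups. Tlr1, its partner for triacylated lipopeptides, had 24.7, 15.9 and 13.5 CPM in CrePos IM against 35.5, 22.1 and 28.5 CPM in CreNeg IM. In CrePos RM it had 0 counts in RM649, which allows up to 0.495 CPM (3 counts, covering counting error only), 24.8 CPM in RM650 and 1.51 CPM in RM661, against 15.6, 13.8 and 1.33 CPM in CreNeg RM. The Tlr1 groups overlapped within each cell type, and 1 library set the CrePos RM mean.

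The endosomal receptors differed in where they stood highest. Tlr9 had 52.1, 37.2 and 53.5 CPM in CrePos IM against 77.4, 76.6 and 85.6 CPM in CreNeg IM, with no overlap. It had 3.63, 21.7 and 10.2 CPM in CrePos RM against 29.2, 37.3 and 35.5 CPM in CreNeg RM, again with no overlap. CrePos IM and CreNeg RM shared the tip of their ranges for Tlr9, since IM650 (37.2 CPM) lay just under RM657 (37.3 CPM). Tlr13 had its highest values in RM libraries instead. It had 103, 138 and 123 CPM in CrePos IM, below the 178, 236 and 221 CPM of CreNeg IM. Its CrePos RM libraries held 369, 379 and 69.5 CPM, the last in RM661, against 508, 382 and 286 CPM in CreNeg RM, so the RM groups overlapped. Tlr7 varied least, at 288, 318 and 209 CPM in CrePos IM against 278, 301 and 283 CPM in CreNeg IM. In RM all CrePos libraries (278, 230.1 and 106 CPM) lay below all CreNeg libraries (397, 315 and 340.1 CPM). Its neighbour Tlr8 ranged from 63.1 to 114 CPM in CrePos IM against 91.0 to 117 CPM in CreNeg IM, and from 18.5 to 97.3 CPM in CrePos RM against 68.7 to 163 CPM in CreNeg RM. Every adjacent pair of Tlr8 groups overlapped.

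The adaptor Myd88 had 29.8, 27.9 and 50.1 CPM in CrePos IM against 55.0, 53.0 and 51.8 CPM in CreNeg IM. All 3 CrePos libraries were the lower ones, by a narrow margin for IM661. In RM it had 49.8, 37.0 and 30.9 CPM in CrePos against 62.0, 79.3 and 46.7 CPM in CreNeg libraries, which overlapped.

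Per exon length, which allows levels of different genes to be compared, Cd14 was the highest of the 10 genes in 3 groups. It averaged 237 ± 28.2 CPM per kilobase in CrePos IM and 359 ± 46.3 in CreNeg IM (SD, n = 3 each), followed by Tlr2 at 116 ± 28.8 CPM per kilobase in CrePos IM and 140.1 ± 27.04 in CreNeg IM. In CreNeg RM, the ranges of Cd14 (112 ± 55.7 CPM per kilobase), Tlr13 (91.1 ± 25.8) and Tlr7 (85.9 ± 10.3) overlapped, and every library had less Tlr2 (71.0 ± 5.17) than the lowest Tlr7 value. In CrePos RM, Tlr13 came first at 63.3 ± 40.9 CPM per kilobase whereas Cd14 stood at 28.6 ± 15.4. Tlr4, Ly96 and Tlr1 were among the 3 lowest in both IM groups and in CreNeg RM, so the signalling part of the lipopolysaccharide receptor was counted far less per kilobase than its co-receptor Cd14. Exon lengths are those of GENCODE M21, since the authors' annotation is not given in the sources used here.

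**Figure D2:**
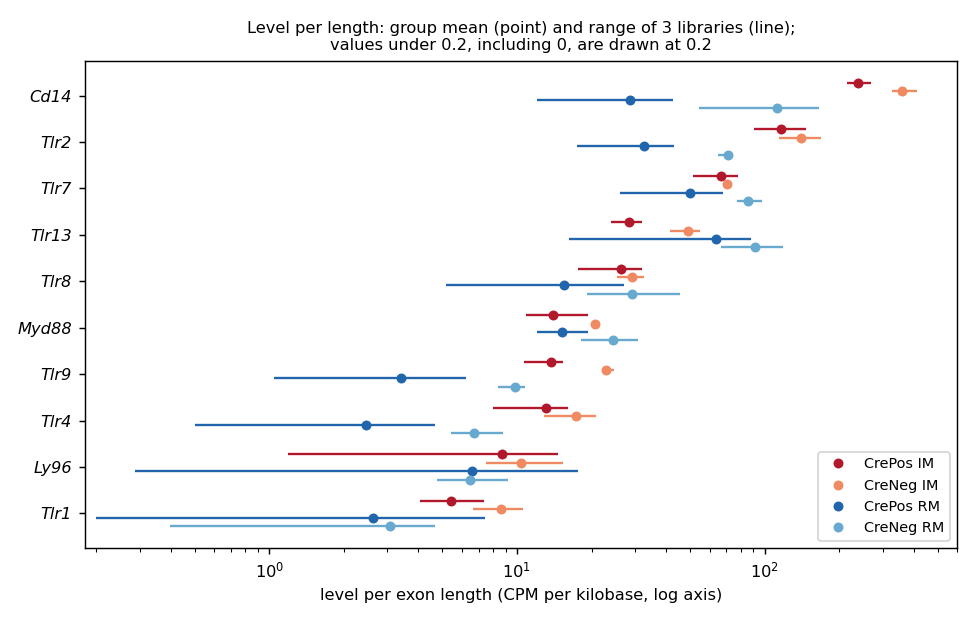
Level of each gene per kilobase of exon on a log axis; points are group means, lines span the lowest to the highest of 3 libraries, and values under 0.2 CPM per kilobase, including 0, are drawn at 0.2. Cd14 and Tlr2 lead in both IM groups, Tlr13 leads in CrePos RM, and Ly96 and Tlr1 show the widest ranges in CrePos RM.

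In interstitial macrophages, the comparison of CrePos with CreNeg libraries asks how the receptors stand in mice labelled as carrying the Hif1a deletion. All 10 log2 fold changes were below 0, yet none passed edgeR's quasi-likelihood test (Benjamini-Hochberg adjusted p under 0.05 over all 14254 genes). The count was also 0 of 10 at an unadjusted p under 0.05 and 0 with DESeq2. Over all genes 0.288% passed and 9.84% had an unadjusted p under 0.05, and DESeq2 called 435 of 19049 genes. The median of the 10 was -0.48, against 0.07 over all genes, of which 46.8% were below 0. Of the 10, 4 had no overlap between groups, all lower in CrePos IM, where 13.4% of all genes did the same. They were Tlr13 (log2 fold change -0.80 ± 0.44, standard error), Tlr9 (-0.75 ± 0.48), Cd14 (-0.60 ± 0.40) and Myd88 (-0.57 ± 0.36). Tlr7 lay nearest to 0 at -0.08, with a 95% interval from -0.72 to 0.56. Tlr13 was past the threshold as lower when only the 6 IM libraries were fitted, where 950 of 13566 genes passed. The share of non-exonic reads differed between the same groups without overlap, and with it as a covariate Tlr4 turned to 0.84. The 14 interstitial macrophage markers summed to between 13707 and 18757 CPM in CrePos IM against 23328 to 26632 CPM in CreNeg IM. Apoe (mean 6490 against 9341 CPM) and Cd74 (3916 against 7837 CPM) weigh most in these sums. Of the 14, 11 had log2 fold changes below 0 and 3 above 0, with none past the threshold. Mertk was higher in CrePos IM without overlap (359 to 385 against 189 to 252 CPM). The 13 nonclassical monocyte markers summed to between 1599 and 2127 CPM in CrePos IM against 2179 to 2714 CPM in CreNeg IM, with 10 below 0 and 3 above 0. Every marker of both lists was counted in both groups. Malat1, a nuclear RNA, took 4.34 to 4.57% of gene counts in CrePos IM against 0.862 to 1.68% in CreNeg IM. Total gene counts were 7039631 to 9054232 in CrePos IM against 13333039 to 14099509 in CreNeg IM. The part of these markers, of Malat1 and of depth in the values was not tested, and in pools of cells fewer cells of a type and less RNA per cell cannot be told apart.

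In the monocyte libraries, the same comparison gave values farther from 0 for 7 of 10 genes, all but Tlr1, Tlr13 and Ly96, again with 0 of 10 genes past the threshold with edgeR. Here 5 of 10 had an unadjusted p under 0.05 (Cd14, Tlr2, Tlr9, Tlr7 and Tlr4), and DESeq2 called 1, Cd14. Over all genes 0.421% passed and 16.1% had an unadjusted p under 0.05. DESeq2 called 1097 of 19049 genes, 411 of them lower in CrePos RM. Cd14 had a log2 fold change of -1.98 ± 0.42 (3.94-fold lower in CrePos RM) and an adjusted p of 0.0502, just above the threshold. Tlr2 had -1.13 ± 0.31 (adjusted p = 0.0933), Tlr9 -1.52 ± 0.49 (adjusted p = 0.140), Tlr7 -0.78 ± 0.30 (adjusted p = 0.217) and Tlr4 -1.44 ± 0.56 (adjusted p = 0.220). These 5 were also the genes whose CrePos RM libraries all lay below the CreNeg RM libraries, as 11.4% of all genes did. The median of the 10 was -0.84, against -0.10 over all genes, and 9 were below 0, as 54.1% of all genes were. Ly96, at 0.02, had an interval from -2.55 to 2.60 and Tlr1, at -0.23, one from -2.80 to 2.34, so a change of severalfold either way lies within their error. Counts of Tlr1 were 0 in RM649 and 169 in RM650, and counts of Ly96 109 in RM649 and 2 in RM650, the CrePos RM libraries with 5332600 and 6109857 gene counts. Cd14 passed without RM650 (adjusted p = 0.0294), RM661 (0.0315) or RM648 (0.0260), and Tlr9 passed without RM650 and Tlr4 without RM661. Over all genes 261 of 15042 passed without RM650, 570 of 14841 without RM661 and 28 of 15040 without RM648. Over all alternatives tried the adjusted p of Cd14 ran from 0.00418 to 0.311. Scaling by the factors of DESeq2 moved the median of all genes by 0.14 in this comparison, and no member turned its direction with it.

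Summed markers of several cell types also stood apart between these RM groups. Endothelial markers summed to 5879, 4837 and 12010 CPM in CrePos RM (RM649, RM650 and RM661) against 948, 1848 and 3633 CPM in CreNeg RM (RM648, RM657 and RM659), and all 14 had log2 fold changes above 0 with none past the threshold. With edgeR 13 of the 14 had an unadjusted p under 0.05, as 16.1% of all genes did. The 13 nonclassical monocyte markers summed to between 3842 and 7707 CPM in CrePos RM against 9056 to 14817 CPM in CreNeg RM. All 13 had log2 fold changes below 0, as 54.1% of all genes had, and 1 passed as lower, as 0.337% of all genes did. Interstitial macrophage markers summed to between 1322 and 1800.1 CPM in CrePos RM against 2354 to 4611 CPM in CreNeg RM. Of these 14, 13 were below 0 and 1 above, 10 had an unadjusted p under 0.05 with edgeR and 0 passed. RM661 was the highest for endothelial markers and the lowest for nonclassical monocyte markers. The 6 classical monocyte markers summed to 659.8, 814 and 220 CPM in CrePos RM against 85.3, 5804 and 2794 CPM in CreNeg RM, so the groups overlapped, and RM648, the CreNeg RM library with the least Cd14, was also the lowest here. The 10 neutrophil markers summed to between 60.0 and 124 CPM in CrePos RM against 94.3 to 135 CPM in CreNeg RM, which overlapped; Ly6g was at 0 counts in all 4 groups, Ngp in CrePos RM and Retnlg in CreNeg RM. Without RM661 the log2 fold change of Cd14 was -1.61. The part of these lists in the differences was not tested further.

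**Figure D3:**
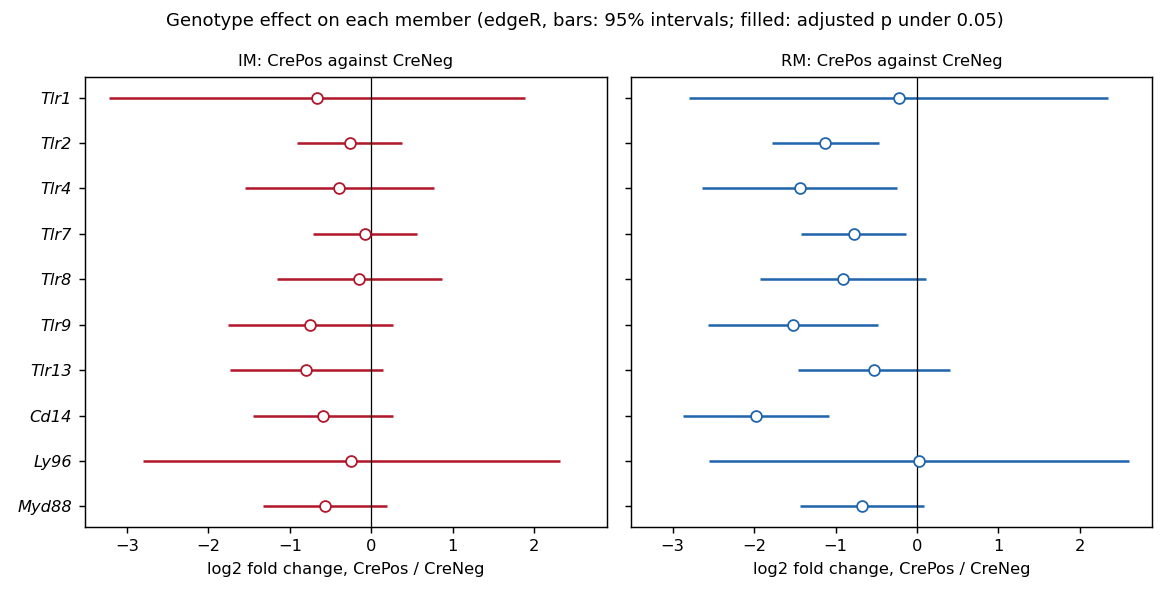
Log2 fold change of CrePos over CreNeg for each gene in IM (left) and in RM libraries (right), with 95% intervals from edgeR; no point is filled because none had an adjusted p under 0.05. All 10 points in IM and 9 of 10 in RM lie below 0, and the RM intervals of Cd14, Tlr9, Tlr4, Tlr2 and Tlr7 exclude 0 before adjustment.

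Sequencing lane was shared by both genotypes within a cell type, which allows a look within lanes. In IM (lanes 5 and 7), 6 of 10 genes had all CrePos below all CreNeg libraries in each lane: Cd14, Tlr2, Tlr1, Tlr9, Tlr13 and Myd88, as 19.2% of all genes did. In RM (lanes 6 and 8), 7 of 10 did: Cd14, Tlr2, Tlr4, Tlr7, Tlr8, Tlr9 and Myd88, as 18.5% of all genes did. For Cd14 the lane means were 372 against 575 CPM in lane 5 and 430 against 713 CPM in lane 7 for IM, and 73.8 against 245 CPM in lane 6 and 37.5 against 93.7 CPM in lane 8 for RM, each time CrePos against CreNeg. Each lane holds only 3 libraries of a cell type, which is too few for a test within it.

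The genotype effects in IM and in RM were then compared with each other, as the IM effect minus the RM effect. With edgeR, 0 of 10 differed past the threshold, as did 0% of all genes. DESeq2 also gave 0 of 10, where it called 108 of 19049 genes. Only Cd14 had an unadjusted p under 0.05 (8.92% of all genes did), with a difference of 1.38 ± 0.57, an interval from 0.16 to 2.60 and an adjusted p of 0.518. Tlr2 came next with 0.86 ± 0.43 (adjusted p = 0.587). The larger values in RM are therefore not shown to differ from those in IM.

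Between cell types, CrePos IM libraries stood above CrePos RM libraries in 4 of 10 genes, with none lower, while 4.57% of all genes passed and 3.22% were higher. Cd14 was 8.30-fold higher (log2 fold change 3.05 ± 0.44, adjusted p = 0.000685), Tlr4 was 5.30-fold higher (2.41 ± 0.58, adjusted p = 0.0244), Tlr9 was 4.01-fold higher (standard error 0.50 on the log2 scale, adjusted p = 0.0291) and Tlr2 was 3.58-fold higher (1.84 ± 0.31, adjusted p = 0.00233). These 4 were also the genes with no overlap between the groups, where 16% of all genes were higher without overlap. Tlr13 had -1.16 ± 0.44 (adjusted p = 0.191) and passed as lower without RM661, the CrePos RM library with the least Tlr13. In that fit 1709 of 14841 genes passed, 492 of them lower, where 652 of 14254 passed with all libraries. Cd14 and Tlr2 passed whichever library was left out. Tlr9 did not pass without IM648, IM649, IM659, IM660 or IM661, nor Tlr4 without IM649, IM650 or RM649. When only these 6 libraries were fitted Cd14 alone of the 10 passed, where 228 of 12988 genes did. IM libraries ran in lanes 5 and 7 and RM libraries in lanes 6 and 8, so a difference between those pairs of lanes and one between cell types cannot be told apart. Lane as a covariate below means the lane within each cell type.

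Among controls, 1 of 10 genes passed, against 7.48% of all genes. Cd14 was 3.19-fold higher in CreNeg IM than in CreNeg RM (log2 fold change 1.67 ± 0.41, adjusted p = 0.0210). DESeq2 called 2 of the 10, Cd14 and Tlr2, both higher, where it called 1903 of 19049 genes, 932 of them higher. Tlr2 had 0.98 ± 0.31 (adjusted p = 0.0672), Tlr9 1.23 ± 0.48 (adjusted p = 0.153) and Tlr4 1.36 ± 0.56 (adjusted p = 0.174). Without overlap, 5 genes were higher in CreNeg IM (Cd14, Tlr2, Tlr4, Tlr9 and Tlr1), as 18.6% of all genes were, and 2 were lower (Tlr13 and Tlr7), as 17.2% were. Tlr13 had -0.89 ± 0.44 (adjusted p = 0.283) and Tlr8 0.01 ± 0.47 (adjusted p = 0.999). The call of Cd14 ended without IM648 (adjusted p = 0.0772), RM648 (0.0955) or RM659 (0.0564) and with the non-exonic share as a covariate (0.424, with a larger log2 fold change of 2.255). With that covariate only 28 of 14254 genes passed. When only these 6 libraries were fitted 5 of the 10 passed, 4 as higher and Tlr13 as lower, where 2015 of 12861 genes passed. Without RM649 or RM661 3 of the 10 passed, where 1525 of 15050 and 1467 of 14841 genes did. Over all alternatives the adjusted p of Cd14 ran from 0.000970 to 0.424.

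**Figure D4:**
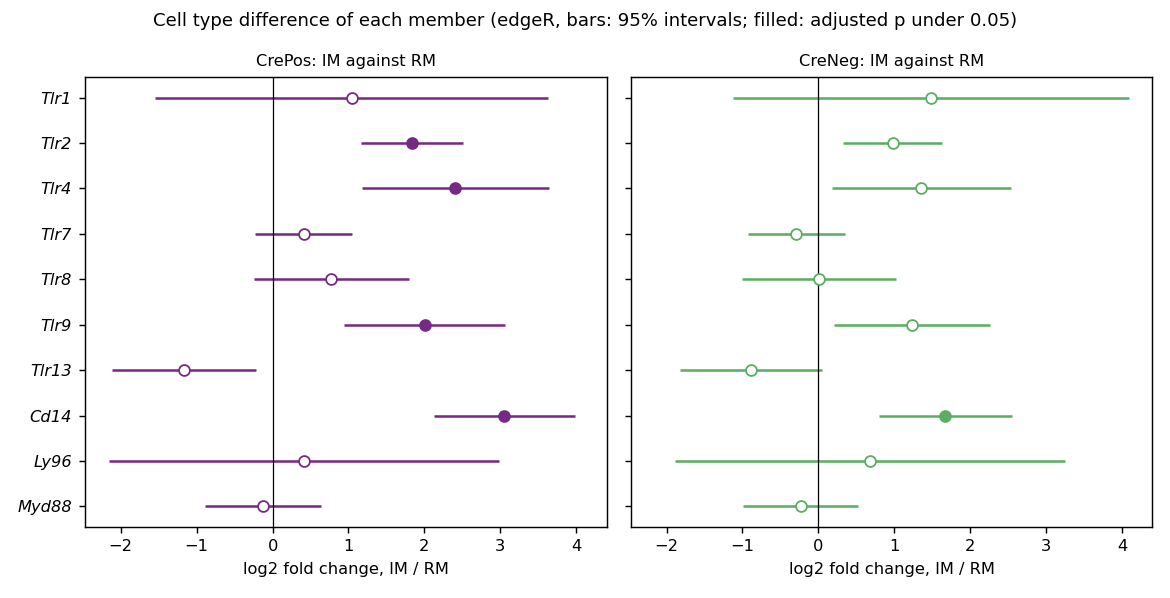
Log2 fold change of IM over RM for each gene in CrePos (left) and CreNeg libraries (right), with 95% intervals from edgeR; filled points had an adjusted p under 0.05. Cd14, Tlr4, Tlr9 and Tlr2 are filled in CrePos libraries and Cd14 in CreNeg libraries, and Tlr13 lies below 0 in both.

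The members did not share a single pattern over the 12 libraries. Pearson's r of log2 CPM, given as a description over libraries that share cell types, genotypes and depth, was 0.97 between Cd14 and Tlr2, 0.87 between Cd14 and Tlr9, and 0.92 between the neighbours Tlr7 and Tlr8. Tlr13 went with Tlr7 (0.66) and Myd88 (0.66), and hardly with Tlr2 (-0.01) or Cd14 (-0.07). Of 6341 genes whose log2 CPM averaged 4 or more, the gene most like Cd14 was Ccl9, a chemokine (r = 0.99 over 12 libraries, 0.93 within the 6 IM and 0.98 within the 6 RM libraries). Cxcl2 (0.98) and Dtx4 (0.98) came next, and Cxcl2 followed Cd14 within RM (0.98) more closely than within IM (0.42). The gene most like Tlr2 was Tnfaip3, which encodes the NF-kB inhibitor A20 (r = 0.99, 0.94 within IM and 0.97 within RM), followed by Rasgef1b (0.98) and Cxcl2 (0.97). For Tlr9 it was Evi2a (r = 0.98, 0.88 within IM and 0.98 within RM), followed by Clec5a (0.97), a myeloid lectin receptor, and Sema4a (0.97). Serpinb8, the gene most like Tlr4 (r = 0.95), followed it within RM (0.96) and hardly within IM (0.01). Nudc (0.95) and Spp1 (0.94) came next for Tlr4.

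Of 22 tested genes that the receptors are known to induce, 5 fell in CrePos RM with edgeR, none rose and 17 did not pass, where 0.337% of all genes fell. The median of the 21 with counts in either group was -2.37, against -0.10 over all genes. Tnf, which encodes the cytokine TNF, averaged 12.3 ± 3.98 CPM in CrePos RM against 104 ± 13.1 CPM in CreNeg RM (SD, n = 3 each; adjusted p = 0.000788). Nfkbia, the NF-kB inhibitor that NF-kB itself induces, averaged 115 ± 5.63 CPM in CrePos RM against 389 ± 49.3 CPM in CreNeg RM (adjusted p = 0.0260). Ccl3, Ccl4 and Cxcl2, which encode chemokines for monocytes and neutrophils, were the others. Ccl3 averaged 28.0 ± 11.2 CPM in CrePos RM against 145 ± 17.8 CPM in CreNeg RM (adjusted p = 0.00624). Without overlap, 13 of the 22 were lower in CrePos RM, as 11.4% of all genes were. The count was 12 with DESeq2, 0 when only the 6 RM libraries were fitted and 2 with lane as a covariate. Over all genes, 411 of 19049 were lower with DESeq2, 0 of 12038 passed in the 6 RM libraries alone and 3 of 14254 were lower with lane. It was 2 without IM648, IM659 or RM657, where 5, 3 and 3 of all genes were lower. It was 3 without IM649, IM650 or IM660, where 10, 25 and 10 of all genes were lower. IM libraries enter this comparison through the shared filter, scaling and spread. Without RM661 the count was 7, where 500 of 14841 genes were lower.

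In CrePos IM the target genes did not pass, with 0 of 22 called by edgeR or DESeq2 and 2 at an unadjusted p under 0.05, Tnf and Ccl3. Over all genes 9.84% were under it, so 2 of 22 is no more than that share. Tnf averaged 172 ± 57.9 CPM in CrePos IM against 326 ± 84.8 CPM in CreNeg IM (adjusted p = 0.258). The median was -0.35, against 0.07 over all genes. No gene of the list passed the test of the difference between the IM and RM effects with edgeR. There were 10 at an unadjusted p under 0.05, as 8.92% of all genes were. DESeq2 called 1 of the list, where it called 108 of 19049 genes.

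In the signalling chain no gene passed in either genotype comparison with edgeR. Over all genes 9.84% in IM and 16.1% in RM had an unadjusted p under 0.05, and the median was 0.07 in IM and -0.10 in RM. DESeq2 called 435 of 19049 genes in IM and 1097 of 19049 in RM. Of 20 adaptors and proximal kinases, 0 passed in either genotype comparison with edgeR, with 0 in IM and 3 in RM at an unadjusted p under 0.05, and DESeq2 called 1 in RM. Their median was 0.28 in IM and -0.52 in RM. Of 13 transcription factors activated by the receptors, 0 passed in IM and in RM with edgeR, with 2 and 4 at an unadjusted p under 0.05 and 0 and 2 by DESeq2, and all 13 were below 0 in RM (median -0.74), as 54.1% of all genes were. Their median in IM was 0.10. Of 14 inhibitors 0 passed in either, with 0 in IM and 4 in RM at an unadjusted p under 0.05, and DESeq2 called 1 in RM (medians 0.11 in IM and -0.70 in RM). Of 15 genes for trafficking, processing and ligand delivery 0 passed in either, with 1 in IM and 6 in RM at an unadjusted p under 0.05 and 1 and 2 by DESeq2 (medians -0.39 in IM and -0.58 in RM). Among these Unc93b1, the chaperone that carries endosomal receptors out of the endoplasmic reticulum, averaged 53.8 ± 36.1 CPM in CrePos RM against 192 ± 43.2 CPM in CreNeg RM (adjusted p = 0.0792).

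**Figure D5:**
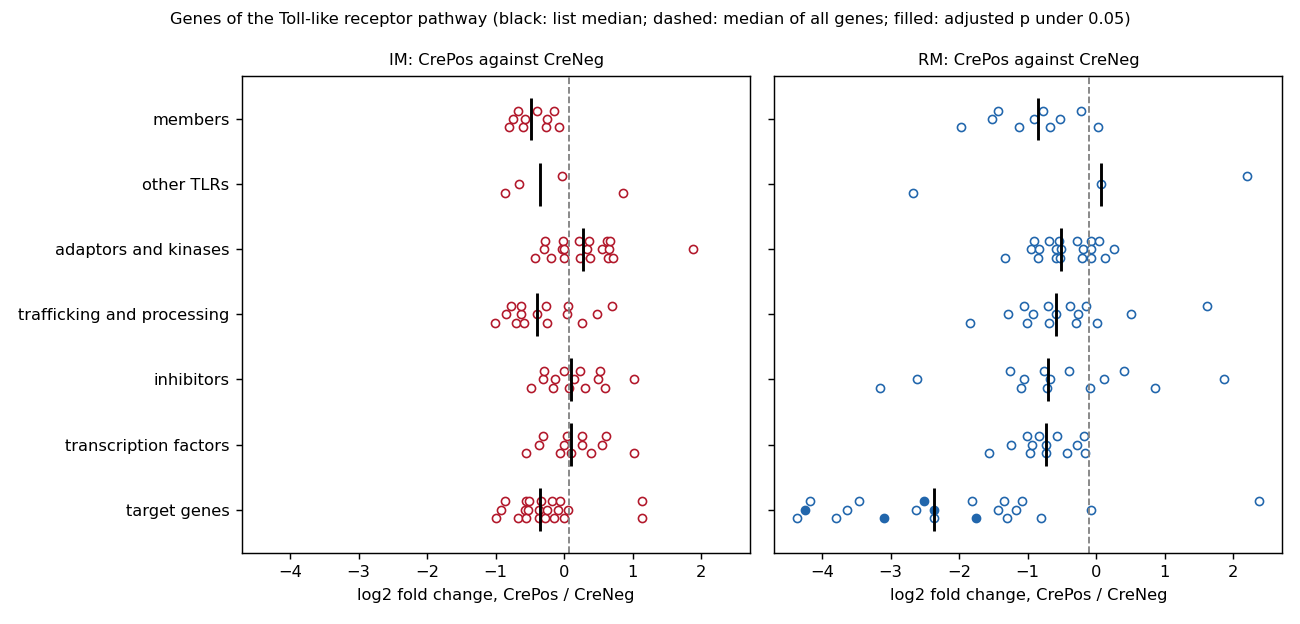
Log2 fold change of CrePos over CreNeg for the 10 receptor genes and for the genes of 6 lists of their pathway, in IM (left) and RM libraries (right); black bars are list medians, the dashed line is the median of all genes, filled points had an adjusted p under 0.05, and genes with no count in one of the groups are left out. The 5 filled points are target genes in RM, and the transcription factors in RM all lie below 0.

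Between cell types, 6 of the 15 trafficking and processing genes were higher and 1 lower in CrePos IM than in CrePos RM, where 3.22% of all genes were higher and 1.35% lower. In CreNeg IM against CreNeg RM, 6 were higher and 3 lower, where 2.81% of all genes were higher and 4.67% lower. Unc93b1 averaged 358 ± 124 CPM in CrePos IM against 53.8 ± 36.1 CPM in CrePos RM (adjusted p = 0.00344). Ctss, which encodes cathepsin S, a protease that can cleave endosomal receptors, averaged 1391 ± 179 CPM in CrePos IM against 446 ± 163 CPM in CrePos RM (adjusted p = 0.00257), and 2801 ± 503 CPM in CreNeg IM against 1086 ± 200 CPM in CreNeg RM (adjusted p = 0.00737). Ctsl, for cathepsin L, and Slc15a3, a peptide and histidine transporter, were also among the higher ones in CrePos IM, and Ctsl and Ctsk in CreNeg IM. The scavenger receptor gene Cd36, which can help TLR2, was the lower one in CrePos IM, at 363 ± 166 CPM in CrePos IM against 1018 ± 258 CPM in CrePos RM (adjusted p = 0.0220). Among controls, Cd180, which encodes a receptor related to TLR4, was lower in IM, at 49.6 ± 4.67 CPM in CreNeg IM against 206 ± 120.4 CPM in CreNeg RM (adjusted p = 0.0109). So was Slc15a4, a transporter of the endolysosome (62.0 ± 14.2 CPM in CreNeg IM against 176 ± 32.4 CPM in CreNeg RM, adjusted p = 0.00976). In CrePos libraries the number that was higher was 3 without IM649, 2 without IM661, 3 with the lane within each cell type as a covariate and 1 when only the 6 libraries were fitted, and the number that was lower was 0 without RM650 and 3 without RM661. In CreNeg libraries 3 were higher without IM648 or RM657, and the number lower was 0 without IM648 or RM648 and 1 without IM659. Over all genes 194 of 15012 were higher without IM648 and 265 of 14982 without RM657. Lower were 310 of 15012 without IM648, 327 of 15040 without RM648 and 276 of 15009 without IM659. With the non-exonic share as a covariate 1 was higher and 0 lower, where 15 and 13 of 14254 genes were.

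Of the adaptors and kinases, 2 were lower in CreNeg IM than in CreNeg RM. Ikbkb, a kinase subunit upstream of NF-kB, averaged 74.5 ± 3.56 CPM in CreNeg IM against 231 ± 18.3 CPM in CreNeg RM (adjusted p = 0.00986). Irak3, which encodes a brake on IRAK signalling, averaged 45.2 ± 6.66 CPM in CreNeg IM against 160.1 ± 63.8 CPM in CreNeg RM (adjusted p = 0.0411). Between CrePos IM and CrePos RM, 0 of 20 passed with edgeR or DESeq2, with 1 at an unadjusted p under 0.05. Over all genes 15.4% were under it, and DESeq2 called 1310 of 19049. Of the inhibitors, Tnfaip3 and Zc3h12a were higher in CrePos IM than in CrePos RM (adjusted p = 0.00141 and 0.0246), and Cyld and Tnip1 were lower in CreNeg IM than in CreNeg RM. Of the transcription factors, Fos was higher in IM in both genotypes, and Rel (161 ± 30.9 CPM in CreNeg IM against 747 ± 236 CPM in CreNeg RM, adjusted p = 0.00472) and Nfkb1 were lower in CreNeg IM. With the non-exonic share as a covariate none of the adaptors, inhibitors and transcription factors passed between CreNeg IM and CreNeg RM, where only 28 of 14254 genes passed. Of the target genes, 13 of 22 were higher in CrePos IM than in CrePos RM and 5 of 22 were higher in CreNeg IM than in CreNeg RM, with none lower, where 3.22% and 2.81% of all genes were higher. The count in CrePos libraries ran from 9 to 15 over the alternatives. The count in CreNeg libraries was 9 when only these 6 were fitted, where 839 of 12861 genes were higher. It was 3 without IM648 or RM648 (194 of 15012 and 206 of 15040 genes). With the non-exonic share as a covariate it was 0, where 15 of 14254 genes were higher. Tnf averaged 172 ± 57.9 CPM in CrePos IM against 12.3 ± 3.98 CPM in CrePos RM (adjusted p = 2.32e-05). Of the other family members Tlr3, Tlr5, Tlr6 and Tlr12 were tested, and Tlr5, the flagellin receptor, was higher in CrePos IM (26.7, 32.9 and 57.3 CPM from lowest to highest) than in CrePos RM, where only 1 library had counts of it (11 counts, 0.976 CPM; adjusted p = 0.0105). With the lane within each cell type as a covariate its adjusted p was 0.146. Between CreNeg IM and CreNeg RM, 0 of the 4 passed with edgeR, where 7.48% of all genes did. DESeq2 called 3, all higher in CreNeg IM, where it called 932 of 19049 genes higher. In the genotype comparisons 0 of these 4 passed with edgeR, with 0 in IM and 3 in RM at an unadjusted p under 0.05. Over all genes 9.84% in IM and 16.1% in RM were under it. DESeq2 called 1 in RM, as higher in CrePos RM, where it called 686 of 19049 genes higher. Tlr11 had too few counts to be tested.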

How the data were processed

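RNA was measured in 12 libraries of sorted mouse lung cells, each from about 250 cells, with a stranded kit for small amounts of total RNA, per the labels. The authors deposited unnormalized counts per gene for each library, with 26608 gene rows and 5 summary rows. Cutadapt 1.12, TopHat2 2.1.1, HTSeq 0.6.0 and the build GRCm38 (mm10) are named in the submitters' processing notes; annotation, strand setting and the treatment of multiply aligned reads were not given in any source used here. Summary rows, which took 45.0 to 74.1% of a library's reads, were kept out of library sizes and tests.

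Genes were kept by edgeR's filterByExpr (minimum count 10), scaled by TMM and fitted over all 12 libraries in 1 quasi-likelihood model with 4 group means (R 4.3.3, edgeR 4.0.16), which was tested on simulated data. A gene passed at a Benjamini-Hochberg adjusted p under 0.05 over 14254 genes. Folds come from the fit, so they can differ from the ratio of mean levels. Alternatives were DESeq2 1.42.0 and its scaling, no filter, only the libraries compared, lane (1 centred term within each cell type, which leaves differences between IM and RM lanes in place) or non-exonic share as a covariate, each library left out, and a replicate block (edgeR, or limma 3.58.1 voom). Figures used Python 3.11.15 with matplotlib 3.10.9.

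The members and gene lists were chosen with earlier results of these data known, and alternatives applied to the lists were added after seeing the data. Members are all described; pathway genes are named from those that passed, at most 5 per list and comparison, smallest p first. Alternatives of the lists give counts only. The floor of 3 counts covers counting error only, whereas fitted intervals include the spread between libraries.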

Additional observations from a re-analysis of the deposited data

How the results depend on the processing

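For the 10 receptor genes, every alternative run kept 0 called in the difference of genotype effects. In CrePos IM against CreNeg IM, 1 passed (Tlr13) with only the libraries compared, where 950 of 13566 genes passed, and 0 when 1 library was left out. In CrePos RM against CreNeg RM, 1 passed without the filter and 1 with DESeq2 (Cd14 each), 3 with the non-exonic share as a covariate (Cd14, Tlr7 and Tlr8), and 0 to 2 with 1 library left out. With no library left out, 153 of 19367, 1097 of 19049 and 351 of 14254 genes passed in these settings, in that order. With 1 library left out, from 4 (without RM657) to 570 genes (without RM661) passed. In CrePos IM against CrePos RM, 1 passed with only the libraries compared, where 228 of 12988 genes passed, and 2 to 5 with 1 library left out. Over all genes from 346 (without IM661) to 1709 (without RM661) passed with 1 library left out. In CreNeg IM against CreNeg RM, 2 passed with DESeq2's scaling, 2 without the filter, 2 with DESeq2, 5 with only the libraries compared, 0 with the non-exonic share, and 0 to 3 with 1 library left out. With no library left out, 1030 of 14254, 1007 of 19367, 1903 of 19049, 2015 of 12861 and 28 of 14254 genes passed in these settings, in that order. With 1 library left out, from 504 (without IM648) to 1525 genes (without RM649) passed.

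The deviations of same-numbered IM and RM libraries correlated at -0.0654 to 0.0809, and not every library correlated best with its own number. These correlations lie between different cell types with 3 libraries a group, so they cannot show whether same-numbered libraries came from the same mouse. With the replicate block, 0 receptor genes passed in the IM genotype comparison (voom, where 181 of 14254 genes passed). In the difference of effects 0 passed with voom (2 of all genes) and with the fixed block (0 of all genes). Of the receptor genes, 1 (Cd14) passed in the RM genotype comparison (voom, 196 of all genes). In CrePos IM against CrePos RM 4 passed with voom (Cd14, Tlr2, Tlr4 and Tlr9, with 877 of all genes). With the fixed block 2 passed there (Cd14 and Tlr2, with 397 of all genes). In CreNeg IM against CreNeg RM 4 passed with voom (1669 of all genes). With the fixed block 0 passed there (289 of all genes), and Cd14 had an adjusted p of 0.0555. Under the block the difference of effects turned for Ly96 (0.79 voom, 0.30 fixed), Tlr1 (1.43 and 0.53), Tlr13 (0.18 and 0.032) and Myd88 (-0.16 fixed). Also turned were Ly96 in RM (-1.50, voom), and Myd88 (0.0053) and Tlr8 (-0.22) between the controls (fixed).

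Other values that turned direction were all of genes that had not passed, except Irak3 (0.088 with the non-exonic share, controls). With that share they were Tlr4 in IM (0.84), Ly96 in RM (-1.12), Tlr7 (-0.33) and Tlr8 (-1.07) in the difference, and Tlr13 (1.01) and Tlr7 (0.90) between controls. With lane within cell type they were Ly96 in RM (-1.61), Ly96 (1.51) and Tlr1 (0.39) in the difference, and Ly96 (-0.10) and Tlr8 (-0.068) between controls. Myd88 turned in the difference with DESeq2's scaling (-0.049), without the filter (-0.061) and with DESeq2 (-0.048). With 1 library left out, values ran from -0.84 to 0.21 (Ly96), -0.21 to 0.021 (Tlr7) and -0.30 to 0.019 (Tlr8) in IM, and from -2.56 to 0.58 (Ly96) and -3.64 to 0.34 (Tlr1) in RM. They ran from -0.87 to 2.27 (Ly96), -0.38 to 0.29 (Myd88), -1.05 to 2.93 (Tlr1) and -0.73 to 0.011 (Tlr13) in the difference. They ran from -0.19 to 2.98 (Ly96) and -0.55 to 0.079 (Myd88) between CrePos IM and CrePos RM, and from -0.21 to 0.49 (Tlr8) between controls. The cause of these changes was not tested. Ly96 and Tlr1 had the widest intervals of the 10 genes, with 2 and 0 counts in their lowest libraries; how far depth or scatter sets them was not tested. Where a group was left with 2 libraries, they were assumed to vary like the other groups.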
